A study of Homo sapiens with 12 samples.

Results

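The TAM receptors TYRO3, AXL and MERTK and their ligands GAS6 and PROS1 were followed through 12 RNA-sequencing libraries of WM-266-4 cells, a human melanoma line. The 5 genes were chosen by name, as the 3 receptors of the family and its 2 classical ligands, among the 35579 genes to which the deposited transcripts could be assigned. All 5 passed the filter on low counts, which left 15098 genes for testing. The cells of every library carried a stable lentiviral knock-down of TYRO3 and were transfected with a pEZY-myc-his plasmid that encoded GFP, wild-type TYRO3 (WT), TYRO3 ΔGS (I449A) or TYRO3 ΔADAM (P408A/L409P/G419P). Each construct was sequenced once in each of 3 numbered experiments, so that n = 3 per group. The cells were kept under puromycin and were starved of serum overnight before RNA was extracted. The labels name GFP as the content of the control plasmid, whereas the study's text describes an empty plasmid, and the labels were followed. The GFP libraries are therefore knock-down controls, and cells without the knock-down were not analysed here, so that the effect of the knock-down itself is not measured. The design asks what is changed by expressing TYRO3 from a plasmid in these cells. It also asks whether a receptor with its γ-secretase site (ΔGS) or its ADAM protease sites (ΔADAM) mutated gives another response than WT.

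TAM receptors are receptor tyrosine kinases that sense phosphatidylserine on dying cells and debris through bridging ligands. GAS6 binds every member of the family, whereas protein S, the product of PROS1, activates TYRO3 and MERTK. Both ligands carry a Gla domain that needs vitamin K-dependent carboxylation to hold phosphatidylserine. The extracellular part of the receptors can be shed by ADAM proteases, after which γ-secretase cuts the remaining stump within the membrane and frees the intracellular domain. In melanoma, AXL is known as a marker of cells with little MITF, the master transcription factor of the melanocyte lineage.

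The genes lie on chromosome 15 (TYRO3, ENSG00000092445, positions 41557675 to 41583586, plus strand), chromosome 19 (AXL, ENSG00000167601, 41219203 to 41261766, plus strand), chromosome 2 (MERTK, ENSG00000153208, 111898479 to 112029561, plus strand), chromosome 13 (GAS6, ENSG00000183087, 113820549 to 113864067, minus strand) and chromosome 3 (PROS1, ENSG00000184500, 93873033 to 93980003, minus strand) of GRCh38. The changes in the constructs fall in the part of the TYRO3 coding sequence that encodes the stretch next to and within the membrane. The 2 stretches below are the annotated coding sequence of TYRO3-201 (GENCODE 29), shown because they carry the codons that distinguish the constructs. Capitals mark codons 408, 409 and 418 in the first and codon 449 in the other, counted from 1 at the start codon.
codons 403 to 423: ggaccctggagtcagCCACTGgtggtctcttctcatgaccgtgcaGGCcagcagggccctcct
codons 443 to 455: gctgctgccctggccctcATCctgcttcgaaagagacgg
Codons 408 and 409 lie in exon 9 of 19 (chromosome 15, 41568992 to 41568997), and codon 449 lies in exon 10 (41570119 to 41570121). They encode the residues that the labels name in P408A, L409P and I449A. Codon 419 of this annotated sequence does not encode glycine, the residue named in G419P, and the nearest glycine codon is 418. The plasmid sequences were not analysed here. Because the constructs differ from WT TYRO3 at no more than 3 codons, their reads are counted together with those of the endogenous gene, and a gene-level value for TYRO3 is the sum of both.

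The targeted gene was measured first. In TPM, a transcript level corrected for length and depth, TYRO3 was at 36.4, 27.7 and 30.2 in the GFP libraries of experiments 1, 2 and 3. With WT TYRO3 it was at 1687, 988 and 780 TPM. With ΔGS it was at 1959, 733 and 824 TPM, and with ΔADAM at 1789, 640 and 664 TPM. Every library with a TYRO3 construct stood far above every GFP library, and within each construct experiment 1 was the highest. By TPM, TYRO3 ranked between 4458 and 5751 among all genes in the GFP libraries and between 40 and 191 in the libraries with a construct.

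TYRO3 rose 35.6-fold with WT (log2 fold change 5.15 ± 0.28 (SE), adjusted p = 1.9e-05), 37.4-fold with ΔGS (5.23 ± 0.28, adjusted p = 1.8e-05) and 30.6-fold with ΔADAM (4.94 ± 0.28, adjusted p = 2.8e-05) by the quasi-likelihood test of edgeR, with p-values adjusted over the genes tested by the method of Benjamini and Hochberg. A gene was called when its adjusted p was at most 0.05 and its fold change was over 1.5. It was the only member called with WT, where 0.0397% of all genes tested were called, and with ΔGS, where 0.457% were called. With ΔADAM, MERTK was called too, so that 2 of the 5 members passed against 1.11% of all genes. The plasmids encode TYRO3, so that its own calls were set by the design and say nothing about the other members. The 3 comparisons share the GFP libraries and are not independent of each other.

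The level of TYRO3 was then compared among the constructs. TYRO3 with WT differed from the mean of ΔGS and ΔADAM by 0.07 on the log2 scale (95% confidence interval −0.37 to 0.52), and ΔGS differed from ΔADAM by 0.29 (−0.23 to 0.80). Neither difference passed the test (adjusted p = 1.0 for both, edgeR).

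**Figure D1:**
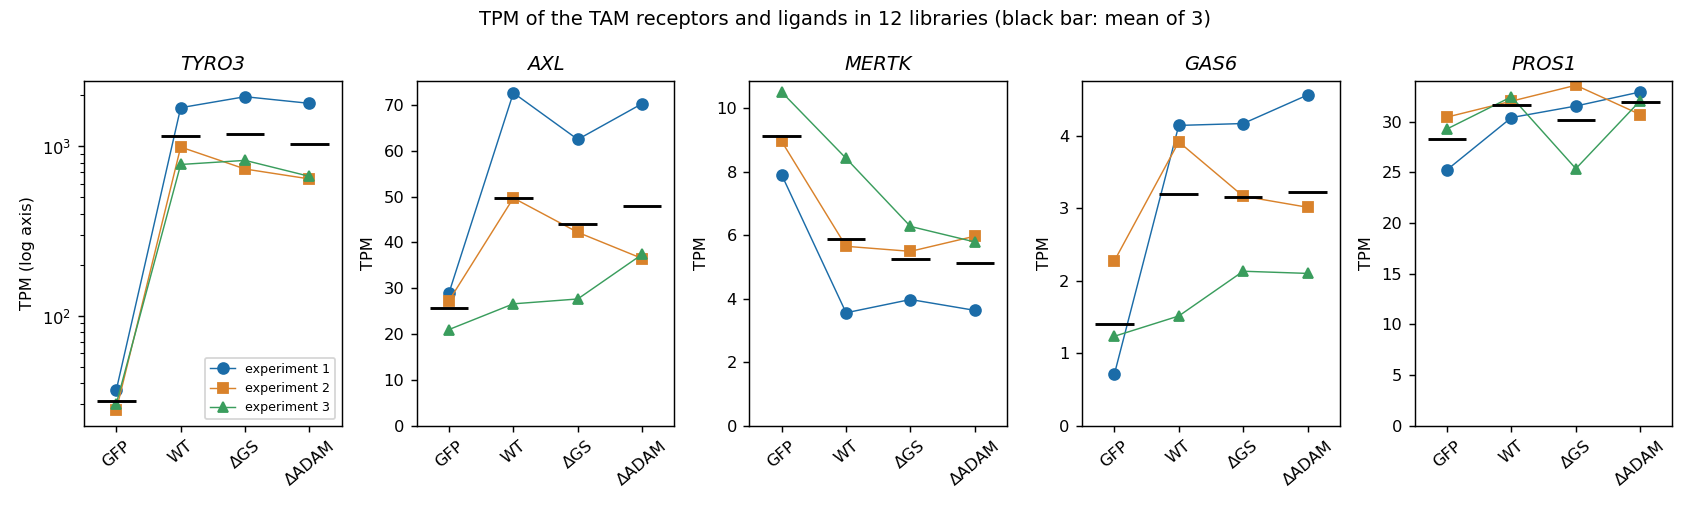
TPM (vertical axes, logarithmic for TYRO3) of the 5 genes in the 12 libraries, by construct, with libraries of one experiment joined by a line and the mean of 3 libraries as a black bar. TYRO3 rises from 27.7 to 36.4 TPM with GFP to 640 TPM or more, AXL and GAS6 lie higher and MERTK lower with the constructs in each experiment, and PROS1 stays between 25.3 and 33.6 TPM.

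The TYRO3 reads were assigned mostly to TYRO3-202, a protein-coding transcript with a short 3′ untranslated region. TYRO3-202 was at 9.60, 12.1 and 15.2 TPM with GFP, and it ranged from 447 to 1385 TPM over the 9 libraries with a construct. It held 52.2% to 69.4% of the TYRO3 counts in the GFP libraries and 91.3% to 94.1% with the constructs. At transcript level, 23 of the 38 annotated transcripts of the 5 genes passed the filter. TYRO3-202, TYRO3-204, TYRO3-205 and TYRO3-207 were called in each comparison with GFP, and these 4 were all the calls made among 69182 transcripts, 0.00578% in each of the 3 comparisons. The log2 fold change of TYRO3-202 was 5.74 ± 0.43 (SE) with WT, 5.85 ± 0.43 with ΔGS and 5.56 ± 0.42 with ΔADAM (adjusted p = 0.0094, 0.0102 and 0.0123, edgeR). The call of TYRO3-202 did not hold without the GFP library of experiment 2 (adjusted p = 0.0720, 0.0653 and 0.0785, edgeR), although its log2 fold changes were then still 5.79, 5.90 and 5.62. The call of TYRO3-202 with ΔGS was also lost without the ΔGS library of experiment 1 (adjusted p = 0.0718, edgeR), and that with ΔADAM without any 1 of the ΔADAM libraries, the ΔGS library of experiment 1 or the WT library of experiment 3 (adjusted p = 0.0520 to 0.0641, edgeR). The call of TYRO3-204 held in each comparison without ΔGS of experiment 2 or of experiment 3 and was lost without any of the other 10 libraries (adjusted p = 0.0598 to 0.277), and with ΔADAM it was also lost with a replicate block, a term for each experiment (adjusted p = 0.0747, edgeR). The calls of TYRO3-205 were lost without any GFP library, with ΔGS also without ΔGS of experiment 1, and with ΔADAM also without ΔGS of experiment 1, WT of experiment 3 or any ΔADAM library (adjusted p = 0.0505 to 0.095, edgeR). Those of TYRO3-207 were lost without the same libraries as TYRO3-202, and with ΔADAM also without GFP or WT of experiment 1 (adjusted p = 0.0520 to 0.0785, edgeR).

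The other transcripts that were called share coding bases with the full-length form. TYRO3-205 and TYRO3-207 are annotated as retained-intron forms, and 82.6% and 29.6% of their bases lie in the TYRO3-201 coding sequence. TYRO3-205 went from 1.63 to 8.18 TPM with GFP to 79.3 to 280 TPM with a construct, and TYRO3-207 from 0.749 to 1.30 to 17.7 to 84.8 TPM. TYRO3-204, a nonsense-mediated decay form with 91.6% of its bases in that coding sequence, was at or near 0 with GFP (0.2, 0.0 and 0.0 estimated counts) and at 126.9 to 858.4 estimated counts with a construct. TYRO3-208, a coding fragment, had log2 fold changes of 3.51, 4.04 and 3.40 that did not pass the test (adjusted p = 0.452, 0.312 and 0.377, edgeR), although it passed with the block for WT (adjusted p = 0.0497) and ΔGS (adjusted p = 0.0341), where 0.00867%, 0.00867% and 0.00578% of all transcripts were called with WT, ΔGS and ΔADAM. DESeq2 called TYRO3-208 in all 3 comparisons (adjusted p = 2.51e-06, 5.73e-09 and 4.94e-06), where it called 0.663%, 1.02% and 0.953% of all transcripts.

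TYRO3-201 and TYRO3-209 gave other values, and they were singled out after their values were seen. Of their bases 32.6% and 19.5% lie in the TYRO3-201 coding sequence, against 29.6% for TYRO3-207, which was called in each comparison. TYRO3-201 has a 3′ untranslated region of 5310 bases out of 8207, and it was at 0.972, 0.978 and 0.623 TPM with GFP and at 2.54 to 7.52 TPM with the constructs. Its log2 fold changes of 2.18, 2.38 and 2.13 were smaller than those of TYRO3-202 and did not pass (adjusted p = 0.133, 0.0771 and 0.16, edgeR), whereas DESeq2 called TYRO3-201 in all 3 comparisons (adjusted p = 1.01e-12, 7.08e-16 and 3.52e-12). TYRO3-209, a single-exon retained-intron form with 391 of its 2004 bases in the coding sequence, was at 7.77, 9.13 and 8.44 TPM with GFP. It was at 3.19, 5.64 and 7.24 TPM with WT, 2.71, 4.04 and 8.16 TPM with ΔGS and 1.94, 6.22 and 8.72 TPM with ΔADAM. The log2 fold changes of TYRO3-209 were between −0.84 and −0.87, and none passed (adjusted p = 1.0, 0.83 and 0.903, edgeR). Reads that fit several of these transcripts were divided among them by estimation, so that a value for a single transcript is less certain than the gene's sum.

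**Figure D2:**
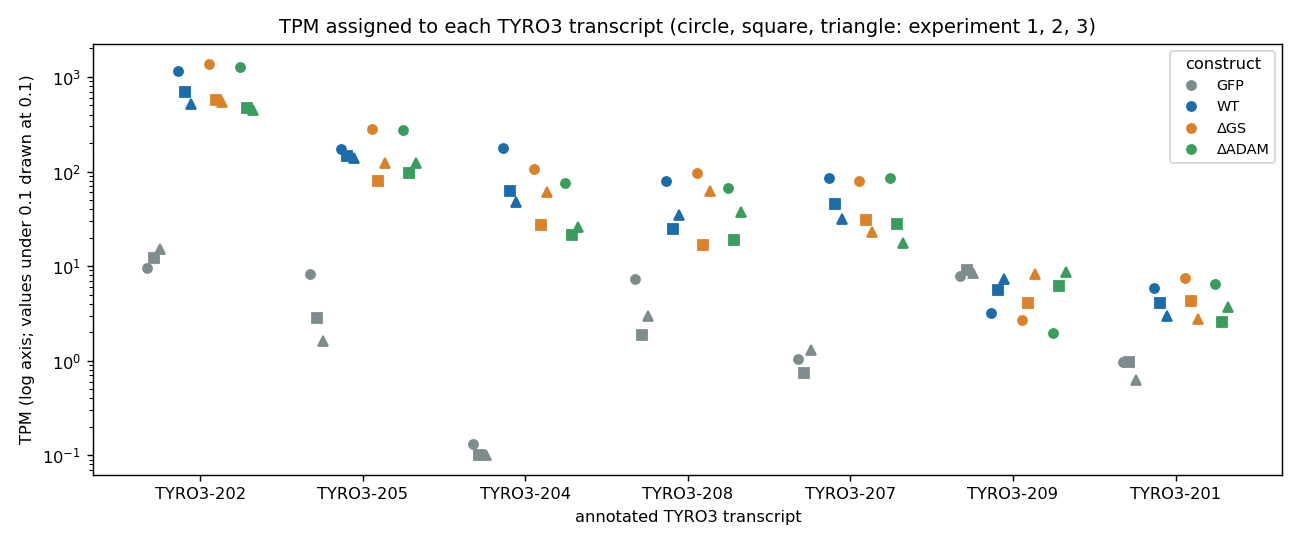
TPM (logarithmic axis) assigned to 7 annotated TYRO3 transcripts in each of the 12 libraries, coloured by construct and shaped by experiment. TYRO3-202 reaches 447 TPM or more in every library with a construct, whereas TYRO3-209 lies between 1.94 and 9.13 TPM in all 12.

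Next came the other receptors. AXL, the TAM receptor with a strong preference for GAS6, was at 28.98, 27.3 and 21.0 TPM in the GFP libraries. It was at 72.6, 49.7 and 26.6 TPM with WT, at 62.5, 42.2 and 27.7 TPM with ΔGS and at 70.3, 36.5 and 37.4 TPM with ΔADAM. AXL was higher than in the GFP library of the same experiment in 9 of 9 pairs, and across experiments the TPM of GFP overlapped that of WT and ΔGS but not that of ΔADAM. Here and for the genes below, the pairs of an experiment share its GFP library and are not independent. How many of all genes agree in 9 of 9 pairs, or have groups that do not overlap, was not counted. Neither is therefore a result about the members. In bulk RNA, more cells that express a gene and more RNA per cell cannot be told apart. The ratio of CPM (counts scaled by library depth) to the GFP library of the same experiment was 2.24, 1.89 and 1.27 for WT, 1.95, 1.64 and 1.65 for ΔGS and 2.14, 1.42 and 1.83 for ΔADAM.

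The log2 fold change of AXL was 0.83 ± 0.20 (SE) with WT, 0.79 ± 0.20 with ΔGS and 0.81 ± 0.20 with ΔADAM, which corresponds to 1.78-fold, 1.72-fold and 1.75-fold. None of these passed in the fit that set experiment 1 apart from the other experiments (adjusted p = 0.117, 0.078 and 0.065, edgeR). DESeq2 with the same term called AXL in all 3 comparisons (adjusted p = 0.00512, 0.00611 and 0.00352), where it called 376, 609 and 670 of 15098 genes. With the replicate block AXL rose in all 3 comparisons (adjusted p = 0.0218, 0.0162 and 0.012), where 2.35%, 4.70% and 5.20% of all genes were called. These are 355, 709 and 785 genes, and without single libraries the blocked fit called 79 to 606, 269 to 778 and 198 to 871. The blocked calls were lost without the GFP library of experiment 1, which had 4008293 estimated counts, the fewest of all (log2 fold changes 0.71, 0.69 and 0.73, adjusted p = 0.0915, 0.0645 and 0.0555). They were also lost without WT of experiment 1 (0.72, adjusted p = 0.122) or 2 (0.69, adjusted p = 0.116), ΔGS of experiment 2 (0.79, adjusted p = 0.0545) and ΔADAM of experiment 1 (0.80, adjusted p = 0.0557) or 3 (0.70, adjusted p = 0.0873), each in its own comparison. In the edgeR fit without the block, AXL passed in all 3 comparisons without WT of experiment 3 (1.07, 0.79 and 0.82, adjusted p = 0.0331, 0.039 and 0.0328) and with ΔADAM also without ΔGS of experiment 3 (0.81, adjusted p = 0.0457).

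Most AXL reads belonged to AXL-201, the full-length form with the longer 3′ untranslated region, which was at 12.2 to 17.3 TPM with GFP and at 18.3 to 51.9 TPM with the constructs. AXL-201 had log2 fold changes of 1.05, 1.13 and 1.09 (adjusted p = 0.858, 0.564 and 0.564 over all transcripts, edgeR), and DESeq2 called it in all 3 comparisons (adjusted p = 0.006, 0.000963 and 0.00232). AXL-202, which lacks a short coding exon segment, ranged from 4.11 to 8.31 TPM with GFP and from 1.23 to 15.8 TPM with the constructs, and AXL-203 from 2.55 to 4.69 and from 0.753 to 4.91 TPM. AXL-205, a retained-intron form, stayed under 1 TPM in every library (at most 0.817 TPM).

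MERTK, the receptor that macrophages use to clear apoptotic cells, moved the other way. It was at 7.90, 8.96 and 10.5 TPM with GFP. It was at 3.56, 5.65 and 8.42 TPM with WT, at 3.98, 5.49 and 6.28 TPM with ΔGS and at 3.63, 5.97 and 5.79 TPM with ΔADAM. MERTK was lower than in the GFP library of the same experiment in 9 of 9 pairs. The TPM of ΔGS and ΔADAM did not overlap that of GFP, whereas WT of experiment 3 lay within the GFP range. As for AXL, the share of all genes without overlap was not counted. Within experiments, the ratio of CPM to GFP was 0.339, 0.653 and 0.775 for WT, 0.446, 0.583 and 0.559 for ΔGS and 0.353, 0.672 and 0.491 for ΔADAM.

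MERTK fell with ΔADAM (log2 fold change −1.01 ± 0.21 (SE), 2.01-fold, adjusted p = 0.0473, edgeR). The log2 fold change was −0.90 ± 0.21 with ΔGS and −0.78 ± 0.21 with WT, and neither passed (adjusted p = 0.0683 and 0.142). With the replicate block MERTK fell with ΔGS as well (−0.88, adjusted p = 0.0248) and with ΔADAM (−0.98, adjusted p = 0.0164), but did not pass with WT (−0.76, adjusted p = 0.0622). DESeq2 without the block called MERTK with WT, ΔGS and ΔADAM (adjusted p = 0.0223, 0.00316 and 0.000751), where it called 376, 609 and 670 of 15098 genes. ΔADAM was not tested against WT alone. WT lay above the mean of ΔGS and ΔADAM by 0.17 (−0.22 to 0.57), which did not pass (adjusted p = 1.0).

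The edgeR call for MERTK with ΔADAM lay close to the threshold. In the fit without the block it was lost without any of 9 libraries: GFP of experiment 1 (−0.78, adjusted p = 0.235), 2 (−1.17, adjusted p = 0.066) or 3 (−1.04, adjusted p = 0.105), ΔADAM of experiment 1 (−0.92, adjusted p = 0.216), 2 (−1.10, adjusted p = 0.0529) or 3 (−0.97, adjusted p = 0.176), ΔGS of experiment 1 (−1.01, adjusted p = 0.0826) or 2 (−1.004, adjusted p = 0.0566), and WT of experiment 2 (−1.01, adjusted p = 0.0695). The blocked call for ΔADAM was lost without GFP of experiment 1 (−0.78, adjusted p = 0.057) or ΔADAM of experiment 1 (−0.90, adjusted p = 0.0837) or 3 (−0.87, adjusted p = 0.11). The blocked call for ΔGS was lost without GFP of experiment 1 (−0.68, adjusted p = 0.0822) or 3 (−0.96, adjusted p = 0.0595), or ΔGS of experiment 1 (−0.96, adjusted p = 0.0509), 2 (−0.84, adjusted p = 0.0897) or 3 (−0.82, adjusted p = 0.0675). MERTK stayed lower than GFP in each of these fits.

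MERTK-203, the main coding form, was at 4.39, 7.77 and 6.70 TPM with GFP and at 1.38 to 5.25 TPM with the constructs. Its log2 fold changes were −0.98, −1.06 and −0.84 (adjusted p = 1.0, 0.709 and 0.83 over all transcripts, edgeR). MERTK-204, a nonsense-mediated decay form, ranged from near 0 to 2.95 TPM and overlapped between the groups, and MERTK-201 was at most 0.965 TPM and was listed at 0 in all ΔADAM libraries.

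**Figure D3:**
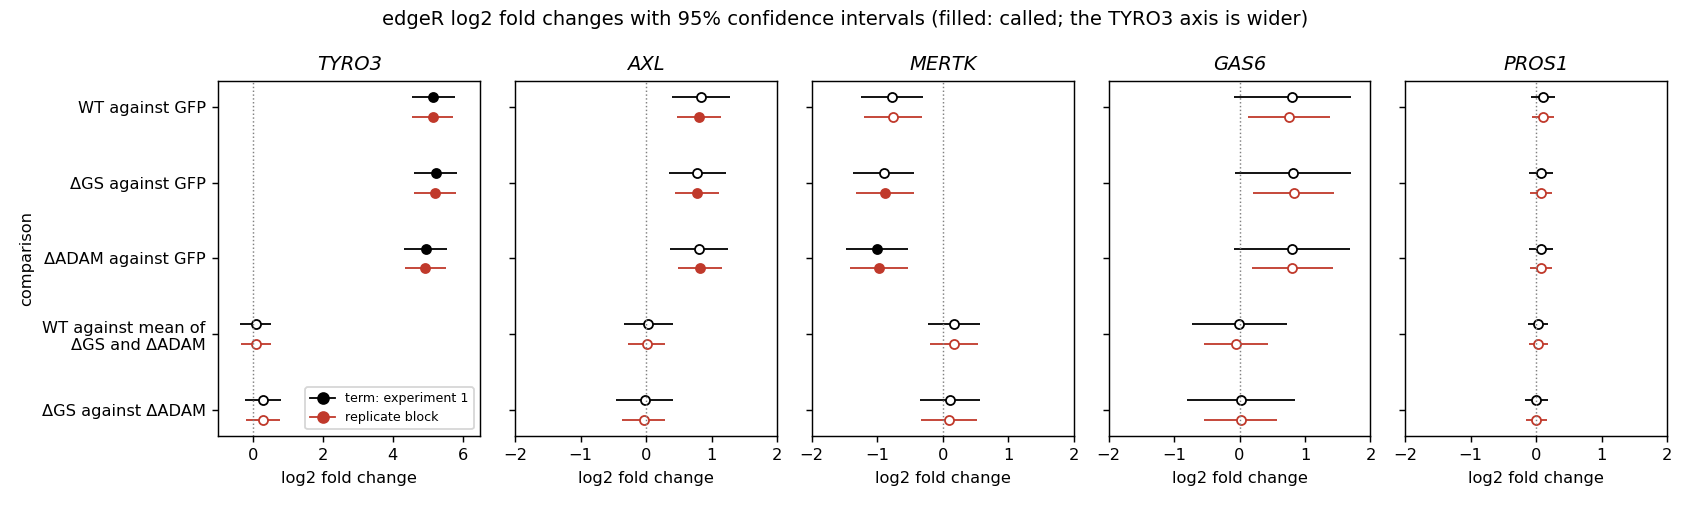
Log2 fold changes (horizontal axes) with 95% confidence intervals for the 5 genes in the 5 comparisons, from the fit with a term for experiment 1 (black) and the fit with a replicate block (red); filled points were called. AXL turns from open to filled with the block in all 3 comparisons with GFP, and no point is filled in the comparisons among TYRO3 constructs.

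Since TPM is corrected for length, the receptors can be set against each other within a library. In the GFP libraries TYRO3 made up 43.3% to 49.6% of the summed TPM of the 3 receptors, AXL 34.1% to 42.7% and MERTK 10.8% to 17.1%. With the constructs TYRO3 made up 93.8% to 96.7%. Apart from TYRO3, the balance of the other receptors also shifted. AXL TPM divided by MERTK TPM was 3.67, 3.05 and 1.997 with GFP, 20.4, 8.79 and 3.16 with WT, 15.7, 7.68 and 4.41 with ΔGS and 19.3, 6.11 and 6.46 with ΔADAM. The ratio was above that of the GFP library of the same experiment in 9 of 9 pairs. This follows from the values of AXL and MERTK given above and adds nothing to them. Across experiments, WT of experiment 3 (3.16) lay within the GFP range. It was highest in experiment 1 with each TYRO3 construct, and with GFP as well. TYRO3 was also highest in experiment 1, so that the level of TYRO3 and the experiment cannot be told apart.

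**Figure D4:**
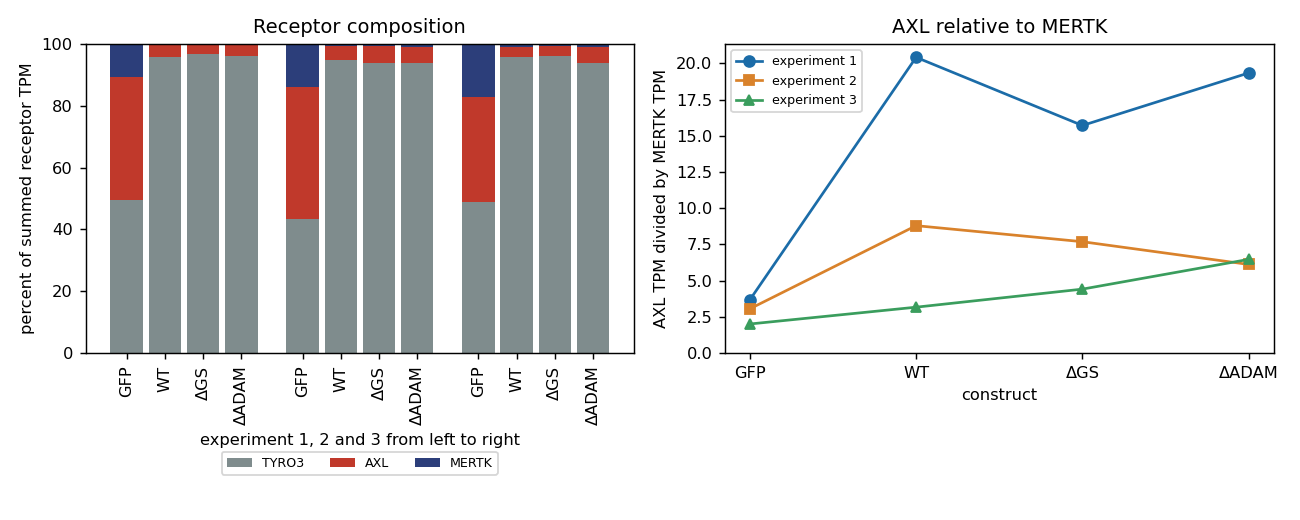
Left, percent of the summed receptor TPM held by TYRO3, AXL and MERTK in each library; right, AXL TPM divided by MERTK TPM by construct, with a line per experiment. TYRO3 holds 43.3% to 49.6% with GFP and 93.8% or more with a construct, and the ratio of AXL to MERTK runs from 1.997 to 3.67 with GFP and from 3.16 to 20.4 with the constructs.

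The ligand GAS6 was expressed at a low level. It was at 0.711, 2.28 and 1.23 TPM with GFP, from 5, 129 and 40 estimated counts. The 5 counts in the GFP library of experiment 1 have an exact Poisson 95% interval of 1.62 to 11.67, which covers counting error only. GAS6 was at 4.15, 3.92 and 1.51 TPM with WT, at 4.17, 3.17 and 2.13 TPM with ΔGS and at 4.57, 3.02 and 2.10 TPM with ΔADAM. It was higher than in the GFP library of the same experiment in 9 of 9 pairs, but the groups overlapped across experiments.

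The ratio of GAS6 CPM to GFP was 4.80, 4.91 and 5.03 for WT, ΔGS and ΔADAM in experiment 1, which rests on the 5 counts. It was 1.68, 1.33 and 1.33 in experiment 2 and 1.14, 1.71 and 1.58 in experiment 3. The log2 fold changes of 0.81 ± 0.41 (SE), 0.82 ± 0.40 and 0.80 ± 0.40 did not pass (adjusted p = 0.381, 0.302 and 0.294, edgeR), and they did not pass with the replicate block (adjusted p = 0.152, 0.0917 and 0.0909). Without the GFP library of experiment 1 they were 0.53, 0.54 and 0.52, and without that of experiment 2 they were 1.34, 1.35 and 1.33 (adjusted p = 0.223, 0.174 and 0.150, edgeR). Without WT of experiment 2 the value with WT was 0.43. Between 59.9% and 89.8% of the GAS6 counts belonged to GAS6-201, the coding form, which was at 0.576, 2.05 and 1.10 TPM with GFP and at 1.24 to 3.27 TPM with the constructs. The retained-intron form GAS6-205 had 0 counts in all 3 GFP libraries and at most 28.3 counts with a construct, and GAS6-203 was at most 0.787 TPM.

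PROS1, which encodes protein S, showed small differences between the groups. It was at 25.3, 30.5 and 29.3 TPM with GFP and at 30.4, 32.0 and 32.5 TPM with WT. It was at 31.6, 33.6 and 25.4 TPM with ΔGS and at 32.9, 30.7 and 32.1 TPM with ΔADAM. In TPM ΔADAM lay just above GFP, while in CPM the 2 groups overlapped (57.0 to 62.4 with GFP and 61.7 to 64.5 with ΔADAM). The log2 fold changes of PROS1 were 0.10 (95% confidence interval −0.08 to 0.28), 0.08 (−0.10 to 0.26) and 0.07 (−0.11 to 0.25), with adjusted p = 0.608, 0.671 and 0.673 by edgeR.

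The transcripts of PROS1 varied more than the gene. PROS1-212, a coding form, was at 4.29, 11.4 and 10.5 TPM with GFP, at 11.3, 13.9 and 17.4 TPM with WT, and between 5.59 and 8.63 TPM with ΔGS or ΔADAM. PROS1-207, a form annotated without a coding sequence, was at 5.86, 9.57 and 9.99 TPM with GFP, at 9.61 to 11.5 TPM with WT and at 10.6 to 18.9 TPM with ΔGS or ΔADAM. With ΔGS it was 0.83 higher on the log2 scale than with GFP and did not pass over all transcripts (adjusted p = 0.551, edgeR), whereas DESeq2 called it (adjusted p = 0.000208). PROS1-203 ranged from 1.37 to 9.46 TPM and PROS1-201 from 0.00 to 5.82 TPM, with the groups overlapping. Summed over protein-coding transcripts alone, which leaves out PROS1-207, the log2 fold change of PROS1 turned to −0.43 with ΔGS (adjusted p = 0.138, edgeR) and to −0.15 with ΔADAM (adjusted p = 0.598).

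In the GFP libraries the order of the levels was TYRO3 (31.4 ± 4.46 TPM, SD, n = 3), PROS1 (28.3 ± 2.73), AXL (25.8 ± 4.21), MERTK (9.12 ± 1.31) and GAS6 (1.41 ± 0.80). The first 3 overlapped with their neighbours. MERTK lay below every AXL value, and GAS6 below every MERTK value. GAS6 made up 2.74%, 6.95% and 4.05% of the summed ligand TPM with GFP and 4.46% to 12.2% with the constructs, so that PROS1 was the main ligand transcript in all 12 libraries.

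Taking each experiment on its own, 4 of the 5 members (TYRO3, AXL, GAS6 and PROS1) were higher with WT than with GFP in 3 of 3 experiments, as were 24.1% of all genes tested, and MERTK was lower in 3 of 3, as were 26.3%. With ΔGS, 3 members (TYRO3, AXL and GAS6) were higher in 3 of 3 experiments, against 23.7% of all genes, and MERTK was lower, against 21.9%. With ΔADAM the same 4 members as with WT were higher, against 24.7%, and MERTK was lower, against 27.1%. Such an agreement in sign was common among all genes, so that these counts are no result about the members.

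The comparisons among the TYRO3 constructs called no member and no other gene. WT against the mean of ΔGS and ΔADAM called 0 of 15098 genes (0.00%) by edgeR, with 119 genes at an unadjusted p under 0.05 and 1 gene called by DESeq2. ΔGS against ΔADAM called 0 genes as well (0.00%), again with 119 genes at an unadjusted p under 0.05 and 1 gene called by DESeq2. For AXL, WT differed from the mean of ΔGS and ΔADAM by 0.04 (95% confidence interval −0.34 to 0.41) and ΔGS from ΔADAM by −0.02 (−0.46 to 0.41). For GAS6 the intervals were wider, from −0.73 to 0.72 and from −0.81 to 0.85, and for PROS1 narrower, from −0.13 to 0.18 and from −0.18 to 0.18. MERTK with ΔGS differed from ΔADAM by 0.10 (−0.35 to 0.56).

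The machinery around the receptors and ligands was looked at through lists of genes. Of the 4 genes that carboxylate and process the ligands, among them VKORC1, a subunit of the vitamin K epoxide reductase (mean 122.4 TPM), and FURIN, a propeptide convertase (49.7 TPM), 0 passed in any of the 5 comparisons, and their median log2 fold changes against GFP were −0.13, −0.14 and −0.12, where the median over all genes was −0.003, 0.01 and −0.002. Of the 7 genes that control exposure of phosphatidylserine, 6 were tested and 0 passed. These include TMEM30A, the partner subunit of the flippases (70.3 TPM), and the flippase ATP11A (32.2 TPM), which passed with the block with ΔGS (log2 fold change −0.73, adjusted p = 0.0249, edgeR). Among the other reported ligands LGALS3 (145.6 TPM) and TUB (4.54 TPM) were tested and neither passed without the block. TUB fell with the block with ΔGS (−0.78, adjusted p = 0.0404) and ΔADAM (−0.71, adjusted p = 0.0498, edgeR). DESeq2 called 1 of these 2 genes lower with ΔGS and with ΔADAM, where it called 609 and 670 of 15098 genes.

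Of the 8 sheddase and γ-secretase genes, which encode the enzymes that the mutated sites are meant to escape, 0 passed, with median log2 fold changes of −0.06, −0.05 and −0.07. The most abundant were APH1A (168.4 TPM) and NCSTN (162.1 TPM), both subunits of γ-secretase. Of the 18 adaptors, kinases and phosphatases that act below the receptors, 0 passed, with medians of −0.09, −0.13 and −0.14, and the highest levels were those of RAC1 (419.5 TPM) and SHC1 (271.6 TPM). The replicate block and DESeq2 called none of these 26 genes either in the comparisons with GFP.

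Of the genes reported as negative regulators under TAM receptors, 1 of the 3 tested was called with ΔGS, against 0.457% of all genes, and none with WT or ΔADAM. SOCS3, a suppressor of cytokine signaling, was at 8.93, 16.5 and 10.1 TPM with GFP, at 29.4, 28.3 and 18.3 TPM with WT, at 36.8, 28.6 and 22.4 TPM with ΔGS and at 22.1, 22.4 and 18.5 TPM with ΔADAM. Every library with a construct was above every GFP library, and the share of all genes that separate in this way was not counted. SOCS3 rose with ΔGS (log2 fold change 1.21 ± 0.22 (SE), adjusted p = 0.0471, edgeR), and the values of 0.94 with WT and 0.67 with ΔADAM did not pass (adjusted p = 0.117 and 0.112). The call with ΔGS held without WT of experiment 1 or of experiment 3, and it was lost without any other single library (log2 fold changes 1.05 to 1.51, adjusted p = 0.0504 to 0.213, edgeR). With the block SOCS3 rose in all 3 comparisons (adjusted p = 0.0137, 0.00246 and 0.0245), as did SOCS1 (log2 fold changes 1.86, 1.90 and 1.61, adjusted p = 0.0326, 0.018 and 0.0286), which had 0.0, 24.0 and 5.0 counts with GFP. These 2 of 3 stand against 2.35%, 4.70% and 5.20% of all genes called with the block. Of the 4 genes in this list 3 were tested, and TWIST1 did not pass in any comparison.

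The cells carried the markers of their lineage. All 8 melanocyte markers were tested, and their summed TPM ranged from 1643 to 1989 with GFP, from 1068 to 1987 with WT, from 1096 to 1605 with ΔGS and from 1103 to 1659 with ΔADAM. MITF was at 126.8, 137.7 and 145.4 TPM with GFP, at 43.2, 107.4 and 119.8 TPM with WT, at 54.1, 95.6 and 49.1 TPM with ΔGS and at 47.9, 99.2 and 61.2 TPM with ΔADAM. It fell with ΔADAM (log2 fold change −1.06 ± 0.23 (SE), adjusted p = 0.0497, edgeR), and the values of −1.01 with ΔGS and −0.82 with WT did not pass (adjusted p = 0.06 and 0.144). The call with ΔADAM held without WT of experiment 1, ΔADAM of experiment 2 or ΔGS of experiment 3, and it was lost without any other single library (−1.21 to −0.75, adjusted p = 0.0529 to 0.239, edgeR). MITF thus moved beside MERTK and against AXL, and its part in their values was not tested. With the block MITF fell with ΔGS (−1.01, adjusted p = 0.0215) and ΔADAM (−1.06, adjusted p = 0.0177) but did not pass with WT (−0.81, adjusted p = 0.0671). DCT, a melanin-synthesis enzyme, likewise fell with ΔGS (−1.24, adjusted p = 0.0299) and ΔADAM (−1.24, adjusted p = 0.0286) and did not pass with WT (−1.02, adjusted p = 0.0844). DESeq2 called 2 of the 8 markers lower with WT, ΔGS and ΔADAM alike, where it called 376, 609 and 670 of all genes. It called no marker in the comparisons among the TYRO3 constructs. The other 6 markers of this list were not called in any comparison with GFP in either edgeR fit. Among them TYRP1, another enzyme of melanin synthesis, went the other way, although at a low level. TYRP1 was at 0.251, 0.691 and 1.33 TPM with GFP, at 2.55, 1.40 and 3.81 TPM with WT, at 1.68, 2.67 and 2.70 TPM with ΔGS and at 1.96, 1.43 and 3.21 TPM with ΔADAM, which was above GFP of the same experiment in 9 of 9 pairs. The GFP value of experiment 1, which all pairs of that experiment share, rests on 2.0 estimated counts. On the log2 scale TYRP1 differed from GFP by 0.76, 0.56 and 0.74, which did not pass (adjusted p = 0.514, 0.594 and 0.434, edgeR).

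Markers of other cell types were low apart from LUM. KRT5 and KRT1, which define keratinocytes, were at 0 in all 12 libraries, and the 4 keratinocyte markers summed to at most 0.831 TPM. The 5 leukocyte and macrophage markers summed to 3.20 to 7.13 TPM with GFP and to 1.82 to 5.28 TPM with the constructs, and the 3 endothelial markers to at most 1.82 TPM. The 4 fibroblast markers summed to 71.8 to 93.1 TPM with GFP and to 45.3 to 73.7 TPM with the constructs, most of it from LUM, an extracellular matrix proteoglycan (mean 55.6 TPM), while COL3A1 was at most 0.414 TPM. COL1A1 ranged from 2.42 to 10.3 TPM (mean 6.20). With each construct COL1A1 was above GFP of the same experiment in experiments 1 and 2 and below it in experiment 3. Of these 16 genes 8 were tested, and none passed in any of the 5 comparisons by edgeR without the block. With the block LUM fell in each comparison with GFP (−0.69, −0.61 and −0.65, adjusted p = 0.0218, 0.0202 and 0.0158, edgeR). DESeq2 called 1 of the 4 fibroblast markers lower in each of these comparisons, where it called 376, 609 and 670 of 15098 genes.

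As copies that could take reads from the members, TYRO3P and PROS2P were found, and both stayed near 0 (at most 0.143 and 0.245 TPM). The antisense and divergent genes of GAS6 and MERTK were not analysed here.

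The genes whose log2 CPM ran most like those of each member over the 12 libraries were found by Pearson's r, as a description, since these libraries share constructs and experiments. They were STAT5A (r = 0.969), TAP2 (0.959) and VAV2 (0.955) for TYRO3, and CORO2B (0.977), NTM (0.977) and NT5E (0.971) for AXL. For MERTK they were TIMP2 (0.988), COL14A1 (0.982) and IARS2 (0.981). For GAS6 they were CYP2S1 (0.986), EGR1 (0.974) and SOX9 (0.974), and for PROS1 WASHC2A (0.923), SKP2 (0.913) and EXOC6 (0.889). Among the members themselves, AXL and MERTK ran opposite to each other (r = −0.946), whereas AXL and PROS1 showed almost no relation (r = 0.02).

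The libraries held 4008293 to 38184838 estimated counts, with a median of 23302002. The GFP library of experiment 1 was the smallest, and its median correlation with the other libraries was the lowest (r = 0.957), followed by ΔGS of experiment 3 (0.973).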

How the data were processed

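PolyA RNA of the WM-266-4 cells was sequenced by the authors with a stranded paired-end protocol. Per the labels and the study's methods, reads were trimmed (Trimmomatic 0.33, FastQC 0.11.9 for quality) and assigned to Ensembl 96 transcripts of GRCh38 with kallisto 0.46.0, and the authors deposited the estimated counts, the TPM and the effective length of each transcript. The study's own test was DESeq2 per transcript after batch correction, and its results were not used. Of 188753 deposited transcripts, 169797 matched GENCODE 29 by identifier without version and were summed into 35579 genes, which held 97.4% to 97.5% of the counts.

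Rounded gene sums were tested with edgeR 4.0.16 (quasi-likelihood, TMM, R 4.3.3) after a filter on low counts (minimum 10, total 15), in one fit over all 12 libraries with a term for experiment 1 against 2 and 3, which the study treated as a batch. Levels are TPM from the deposited files, and ratios within experiments are of TMM-scaled counts (CPM). DESeq2 1.42.0, limma 3.58.1 on log2(TPM + 1) and log2(TPM + 0.1), a replicate block and leaving out each library in turn were among the alternatives. The scripts were tested on simulated data.

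The experiment number in the labels pairs the libraries. Over all genes, deviations from the group means correlated at 0.038 to 0.529 (median 0.29) in 18 pairs from one experiment. Those with a GFP library were at 0.038 to 0.264, lowest in experiment 1 (0.038 to 0.082). Those between TYRO3 constructs were at 0.325 to 0.529, so that pairing was weaker for the comparisons with GFP. The 36 pairs from different experiments were at −0.37 to 0.053 (median −0.14). Deviations within a group cancel out, so that positive correlations within experiments force lower ones between them. Nothing says that the experiments used separately derived knock-down cells, so that p-values measure the spread between these libraries. With 3 libraries per group, precision is set by that spread rather than by depth, except for GAS6.

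The members and lists were chosen with earlier results of these data known. The text names the members; of each list, the genes called in any comparison (up to 4) or else the 2 with the highest TPM; the 3 genes most like each member; and up to 4 transcripts per member by mean TPM, with any that were called. Genes named for blocked calls, TYRO3-201, TYRO3-209, and KRT5, KRT1, COL1A1, COL3A1, TYRP1 and TWIST1 were added after their values were seen.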

Additional observations from a re-analysis of the deposited data

How the results depend on the processing

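Among the 25 differences of the members, TYRO3 against GFP stayed called under every alternative run. AXL against GFP (WT, ΔGS, ΔADAM) passed with the replicate block (log2 fold changes 0.811, 0.783 and 0.820), by DESeq2 (0.843, 0.791 and 0.822), by DESeq2 with a block (0.820, 0.789 and 0.835) and with no filter on low counts (0.833, 0.791 and 0.810), and without single libraries it lay between 0.619 and 1.072 (WT), 0.685 and 0.937 (ΔGS), and 0.703 and 0.972 (ΔADAM). MERTK passed with WT and ΔGS by DESeq2 (−0.779 and −0.904), DESeq2 with a block (−0.780 and −0.899) and no filter (−0.777 and −0.895), and with ΔGS with the block (−0.878); without single libraries it ranged from −1.033 to −0.568 with WT, from −1.058 to −0.679 with ΔGS and from −1.165 to −0.780 with ΔADAM. MERTK with ΔADAM no longer passed with RLE size factors (−0.997), no term for experiment 1 (−0.998), experiments 2 and 3 alone (−0.780), only the groups compared (−1.003), limma with a pseudocount of 1 (−0.739) or 0.1 (−0.842), protein-coding transcripts alone (−0.940) and counts rebuilt from TPM (−0.895); fewer libraries, genes or reads entered some of these, and otherwise the cause was not tested. GAS6 passed by DESeq2 with a block, chosen after seeing the data as was leaving out libraries under the block, with ΔGS (0.860, adjusted p = 0.0396) and ΔADAM (0.849, adjusted p = 0.0388). DESeq2 with a block called 610, 830 and 875 of 15098 genes with WT, ΔGS and ΔADAM. Without single libraries GAS6 lay between 0.435 and 1.338 (WT), 0.540 and 1.351 (ΔGS), and 0.521 and 1.330 (ΔADAM), the highest without GFP of experiment 2. PROS1 turned with protein-coding transcripts alone with ΔGS (−0.432) and ΔADAM (−0.151).

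Between constructs no member passed under any alternative, but signs turned. PROS1, ΔGS against ΔADAM, was −0.008 with RLE, −0.005 with at least 10 counts in every library, −0.008 by DESeq2, −0.007 by DESeq2 with a block, −0.022 in experiments 2 and 3, −0.005 with only the groups compared, −0.087 and −0.090 by limma (pseudocount 1 and 0.1), −0.281 for protein-coding transcripts and −0.027 for rebuilt counts, which also gave −0.010 for WT against the mean of ΔGS and ΔADAM. Experiments 2 and 3 alone gave AXL −0.014 (WT against the mean) and 0.025 (ΔGS against ΔADAM), GAS6 0.025 (WT against the mean) and MERTK −0.020 (ΔGS against ΔADAM). Protein-coding transcripts gave GAS6 0.053 (WT against the mean) and MERTK −0.184 (ΔGS against ΔADAM), and limma gave GAS6 −0.013 with either pseudocount (ΔGS against ΔADAM). Without single libraries, WT against the mean ranged from −0.073 to 0.189 for TYRO3, −0.173 to 0.268 for AXL, −0.077 to 0.383 for MERTK, −0.342 to 0.302 for GAS6 and −0.017 to 0.056 for PROS1, and ΔGS against ΔADAM from −0.183 to 0.079 for AXL, −0.002 to 0.276 for MERTK, −0.152 to 0.161 for GAS6 and −0.049 to 0.078 for PROS1.

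Among transcripts, the block turned AXL-205 with ΔADAM (0.289) and MERTK-204 with WT (0.077) and ΔGS (0.899, and 0.031 with no term for experiment 1). Without single libraries AXL-202 with ΔGS ranged from −0.683 to 0.263, AXL-203 with WT from −0.747 to 0.173, AXL-205 with ΔADAM from −1.783 to 0.504, GAS6-203 with WT from −0.025 to 1.869, MERTK-201 with WT from −2.215 to 1.100, MERTK-204 with WT from −1.021 to 0.503 and with ΔGS from −0.726 to 0.679, PROS1-201 with WT from −2.913 to 0.030, PROS1-203 with ΔADAM from −0.121 to 0.812 and PROS1-212 with ΔADAM from −0.458 to 0.030. Over all genes the counts of calls moved most: 6, 69 and 168 genes with WT, ΔGS and ΔADAM became 1 each in experiments 2 and 3 alone, 3, 4 and 5 with no term for experiment 1, 355, 709 and 785 with the block, 376, 609 and 670 by DESeq2 and 562, 765 and 879 with no filter. Leaving out single libraries gave 1 to 20, 1 to 137 and 1 to 449 calls, and 79 to 606, 269 to 778 and 198 to 871 with the block. The calls among transcripts, 4 in each comparison, became 459, 708 and 659 by DESeq2, 6, 6 and 4 with the block and 0 in each with no term for experiment 1 by edgeR, where 2738, 3656 and 3239 were at an unadjusted p under 0.05. Where a library was left out, the remaining pair of its group was assumed to vary like the other groups. The 5 counts of GAS6 in 1 GFP library limit its fold changes.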
